A study of Mus musculus with 10 samples.

Results

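The genes described here are 10 feedback regulators and transcriptional targets of the extracellular signal-regulated kinase (ERK) pathway: *Dusp4*, *Dusp5*, *Dusp6*, *Spry1*, *Spry2*, *Spry4*, *Spred1*, *Etv4*, *Etv5* and *Phlda1*. They were chosen by gene name from a table of 47069 genes, all 10 were found, and all 10 passed the filter on low counts that left 16179 genes for testing. RNA-seq was performed on 10 libraries of C57BL/6 mouse intestinal organoids cultured for 50 days in Matrigel with Noggin, EGF and R-spondin-1, with 2 libraries a group. The 5 treatments were control (saline), DMBA (the carcinogen dimethylbenzanthracene, with the word long in its label), tamoxifen in a set labelled short (TAM short), tamoxifen in a set labelled long (TAM long), and both agents (DMBA+TAM). The labels of TAM short and TAM long read Dosage-sensitive TAM, whereas that of DMBA+TAM reads TAM without this term. What Dosage-sensitive, short and long refer to is not given in the sources used here, nor whether the tamoxifen treatment was the same in these groups. By the study's methods, the organoids of all groups, control included, came from mice that carry Lgr5-EGFP-CreERT2 and are *Ppp2r1a* flox/flox, in which tamoxifen activates Cre in Lgr5+ crypt stem cells only and deletes *Ppp2r1a*, the scaffold subunit of protein phosphatase 2A (PP2A). The question put to the data was how ERK feedback and target genes stood with the carcinogen, with tamoxifen, and with both.

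ERK is the last kinase of a cascade that runs from receptor tyrosine kinases through RAS, RAF and MEK, and in the intestinal crypt it carries the EGF signal that keeps epithelial cells dividing. Active ERK induces genes of several kinds: the ETS family transcription factors *Etv4* and *Etv5*, the dual specificity phosphatases that remove phosphate from ERK itself (*Dusp4*, *Dusp5* and *Dusp6*), and the Sprouty and Spred proteins, which act at the level of RAS and RAF. The phosphatases and the Sprouty and Spred proteins form negative feedback loops, and the mRNA levels of all these genes are commonly read together as a record of pathway output.

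Libraries held from 8828247 to 10923673 counts in 8 libraries and 1592366 and 1915270 in the DMBA+TAM libraries, so that 3 counts correspond to 1.58 and 1.32 normalised CPM (counts scaled to a common library size) in DMBA+TAM and to 0.259 to 0.379 in the others. *Ppp2r1a* was not lower in the tamoxifen groups: its log2 fold change against control was 0.06 in DMBA+TAM (SE 0.12, adjusted p = 0.687), 0.37 in TAM long (SE 0.11, adjusted p = 0.0213) and 0.14 in TAM short (SE 0.11, adjusted p = 0.459). The counts are sums over the whole gene, so they do not show whether the floxed part was lost. The library titles do not spell out saline, DMBA or tamoxifen. They read NS for control, NL for DMBA, DSS_S for TAM short, DSS_L for TAM long and Lgr5 for DMBA+TAM. The study's text uses DSS for dextran sulfate sodium, which induces colitis in mice. What DSS stands for in these titles is not given in the sources used here. The groups here follow the description in the labels, and whether titles and descriptions match is not given in the sources used here. Below, S libraries are NS and DSS_S, and L libraries are NL and DSS_L. The summed level of 10 small intestine markers was 24596 to 47492 CPM in S libraries and 308 to 863 in L libraries, and that of 6 colon markers was 11.6 to 26.1 and 2030 to 11646, so the letter and the treatment cannot be told apart in DMBA or TAM long against control. The S libraries also differed within the list: *Fabp6*, a bile acid binding protein of the ileum, had a mean of 1.53 CPM in control and 8406 in TAM short, and *Lct*, the lactase of the upper small intestine, 1417 and 1.97. The DMBA+TAM libraries stood apart from all others in cell type markers. Summed epithelium markers (10 genes) were at 18.9 and 32.2 CPM there against 13278 to 23838 elsewhere, with 2 or 3 of the 10 genes above 3 counts and *Cldn4* at 0 in 1 library. Summed fibroblast markers (12 genes) were at 34765 and 35816 CPM against 766 to 2638, macrophage markers (8 genes) at 4344 and 4757 against 153 to 248, endothelium markers (8 genes) at 631 and 639 against 70.2 to 130, and smooth muscle markers (8 genes) at 1497 and 1679 against 1282 to 13532. The smooth muscle genes did not move alike. Of the 8, 2 were called higher and 5 lower in DMBA+TAM against control (adjusted p below 0.05), with a median log2 fold change of -1.66. In that comparison 29% of all genes were called higher and 35.3% lower. Mean *Acta2* was 653 CPM in DMBA+TAM and 267 in control, mean *Myh11* was 46.0 and 962, and *Des* had 57 and 1122 reads in the DMBA+TAM libraries. All 12, 8, 8 and 8 genes of these lists were above 3 counts in each of the 10 libraries, so their presence is not particular to DMBA+TAM. The label intestinal organoid went with high epithelial markers in 8 of 10 libraries, which also held the markers of these other cell types. The part of these marker differences in the results below was not tested, and in bulk RNA fewer cells of a type and less RNA per cell cannot be told apart.

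**Figure D1:**
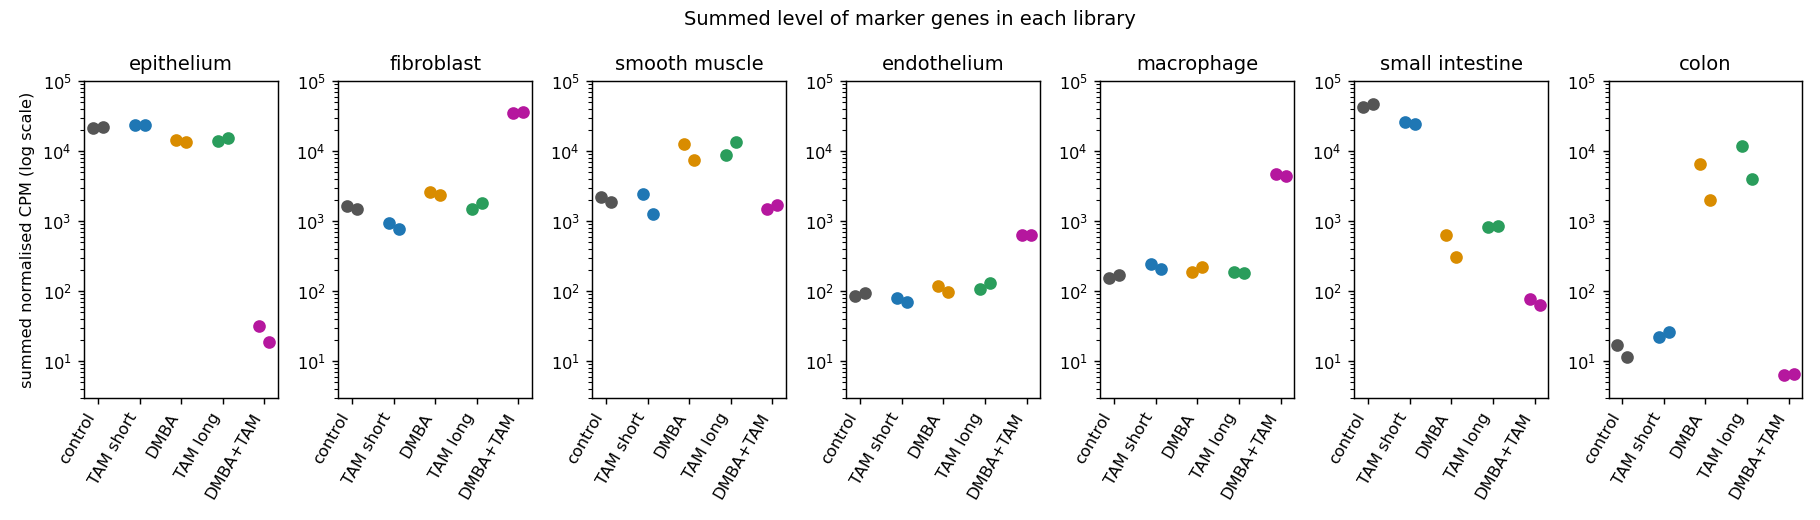
Summed normalised CPM of 7 marker lists (log scale) in each library, 2 points per group. Epithelium markers lie at 18.9 and 32.2 CPM in the DMBA+TAM libraries and at 13278 or above in all others, and small intestine and colon markers separate control and TAM short from DMBA and TAM long.

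In DMBA+TAM against control, 6 of the 10 genes rose, 2 fell and 2 did not pass the test. The 6 that rose were *Etv4*, *Spry4*, *Spred1*, *Etv5*, *Spry1* and *Dusp4*, and the 2 that fell were *Dusp5* and *Dusp6*. *Etv4* had the largest change, 21.5-fold, and the median log2 fold change over the 10 genes was 1.30 against -0.17 over all tested genes. Among all 16179 genes 29% were called higher and 35.3% lower in this comparison, at an adjusted p below 0.05 by the quasi-likelihood test of edgeR, adjusted after Benjamini and Hochberg, which is the adjusted p given throughout. The labels do not say whether the 2 libraries of a group came from separate cultures or mice, so p-values measure only the spread between these libraries. *Phlda1* and *Spry2* did not pass the test.

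**Figure D2:**
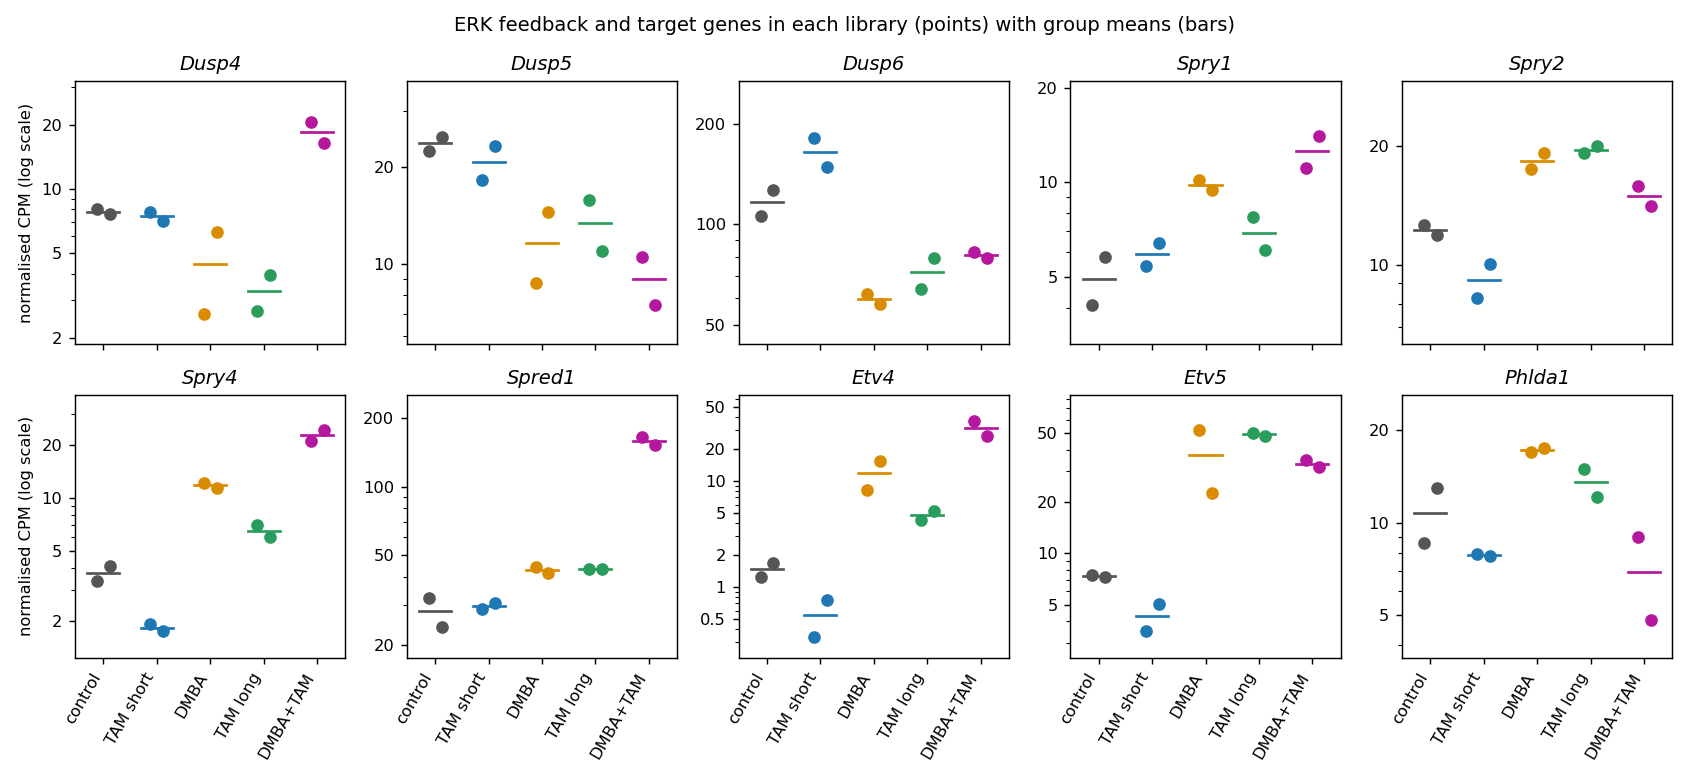
Normalised CPM (log scale) of each of the 10 genes in each library, with points for the 2 libraries of a group and a bar for their mean. Spred1 lies at 153 and 165 CPM in DMBA+TAM and at 44.3 or below in the other 8 libraries, whereas Dusp6 is highest in TAM short (149 and 182 CPM).

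Of the 10 genes, *Etv4* had the widest log2 difference between groups, 5.84, followed by *Spry4* with 3.61 and *Etv5* with 3.53. *Etv4* (ENSMUSG00000017724, chromosome 11, 101769742 to 101785371, minus strand, GRCm38) and *Etv5* (ENSMUSG00000013089, chromosome 16, 22381309 to 22439719, minus strand) encode PEA3 group ETS factors, which bind DNA downstream of ERK. *Etv4* was at 1.24 and 1.69 CPM in control, 0.34 and 0.76 in TAM short, 8.31 and 15.6 in DMBA, 4.31 and 5.21 in TAM long, and 37.0 and 26.9 in DMBA+TAM. Its groups did not overlap, and they stood in the order TAM short, control, TAM long, DMBA and DMBA+TAM. The TAM short values rest on 3 and 6 reads, so the level there is close to the detection limit. The log2 fold change of *Etv4* in DMBA+TAM was 4.43 against control (SE 0.41, adjusted p = 8.05e-06), 1.42 against DMBA (SE 0.34, adjusted p = 0.00535) and 2.74 against TAM long (SE 0.36, adjusted p = 0.000118). *Etv5* was at 7.46 and 7.23 CPM in control, 3.50 and 5.05 in TAM short, 52.6 and 22.5 in DMBA, 50.6 and 48.1 in TAM long, and 34.8 and 31.7 in DMBA+TAM. *Etv5* was thus high in DMBA, TAM long and DMBA+TAM, with the DMBA libraries lying on either side of both DMBA+TAM values. It rose in DMBA+TAM against control by a log2 fold change of 2.18 (SE 0.38, adjusted p = 0.000619). Against DMBA its value was -0.18 (SE 0.34, adjusted p = 0.678), which became 0.56 (adjusted p = 0.0397) without DMBA replicate 1 and -0.68 (adjusted p = 0.0124) without DMBA replicate 2.

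The 3 phosphatase genes did not move alike. *Dusp4* (ENSMUSG00000031530, chromosome 8, 34807297 to 34819894, plus strand) and *Dusp5* (ENSMUSG00000034765, chromosome 19, 53529109 to 53542431, plus strand) encode nuclear phosphatases, and *Dusp6* (ENSMUSG00000019960, chromosome 10, 99263231 to 99267488, plus strand) encodes the cytoplasmic phosphatase of ERK. *Dusp4* was at 8.03 and 7.59 CPM in control, 7.80 and 7.07 in TAM short, 2.59 and 6.29 in DMBA, 2.67 and 3.93 in TAM long, and 20.6 and 16.3 in DMBA+TAM. Both DMBA+TAM libraries lay above the other 8, and its log2 fold change against control was 1.23 (SE 0.38, adjusted p = 0.0166). Without control replicate 1, control replicate 2 or DMBA+TAM replicate 1 that value was 1.25, 1.16 and 1.03, with adjusted p of 0.0702, 0.0844 and 0.102. *Dusp5* was at 22.5 and 24.9 CPM in control, 18.3 and 23.3 in TAM short, 8.75 and 14.5 in DMBA, 15.8 and 11 in TAM long, and 10.6 and 7.49 in DMBA+TAM. DMBA+TAM lay below control and TAM short but overlapped DMBA, and the log2 fold change against control was -1.41 (SE 0.33, adjusted p = 0.00417). Exons of *Dusp5* overlap those of *AC137853.2* on the opposite strand, and since strand is not stated for the counting, reads of the 2 genes cannot be told apart.

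*Dusp6* was the gene of the 10 with the most counts in control. It was at 106 and 127 CPM in control, 182 and 149 in TAM short, 62.0 and 57.8 in DMBA, 64.2 and 79.5 in TAM long, and 82.9 and 79.3 in DMBA+TAM. Levels in the control and TAM short libraries all lay above those of the other 3 groups. Its log2 fold change in DMBA+TAM was -0.52 against control (SE 0.16, adjusted p = 0.0145), 0.44 against DMBA (SE 0.16, adjusted p = 0.0397) and -1.03 against TAM short (SE 0.16, adjusted p = 0.000274). The change against control depended on scaling: with library size alone it was -0.03 (adjusted p = 0.901). It was also lost without control replicate 2 (-0.42, adjusted p = 0.0852) and without DMBA+TAM replicate 2 (-0.52, adjusted p = 0.0653), and with counts thinned to the smallest library it was -0.42 (adjusted p = 0.0816).

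The Sprouty and Spred genes encode membrane-associated proteins that hold back RAS and RAF activation. *Spry4* (ENSMUSG00000024427, chromosome 18, 38586268 to 38601268, minus strand) was at 3.39 and 4.09 CPM in control, 1.92 and 1.77 in TAM short, 12.1 and 11.5 in DMBA, 7.07 and 5.99 in TAM long, and 21.1 and 24.2 in DMBA+TAM. The groups did not overlap and had the same order as those of *Etv4*. Its log2 fold change in DMBA+TAM was 2.60 against control (SE 0.23, adjusted p = 5.63e-06) and 0.94 against DMBA (SE 0.21, adjusted p = 0.00374). *Spred1* (ENSMUSG00000027351, chromosome 2, 117121374 to 117182279, plus strand) was at 32.3 and 24.1 CPM in control, 28.7 and 30.7 in TAM short, 44.3 and 41.4 in DMBA, 43.3 and 43.2 in TAM long, and 165 and 153 in DMBA+TAM. Control and TAM short overlapped, DMBA and TAM long overlapped, and DMBA+TAM was far above both pairs. The log2 fold change of *Spred1* in DMBA+TAM was 2.49 against control (SE 0.15, adjusted p = 3.62e-07), 1.89 against DMBA (SE 0.15, adjusted p = 3.02e-06) and 1.88 against TAM long (SE 0.15, adjusted p = 2.88e-06).

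*Spry1* and *Spry2* had narrower ranges. *Spry1* (ENSMUSG00000037211, chromosome 3, 37639947 to 37644598, plus strand) was at 4.07 and 5.78 CPM in control, 5.42 and 6.44 in TAM short, 10.2 and 9.43 in DMBA, 7.76 and 6.09 in TAM long, and 11.1 and 14.1 in DMBA+TAM. DMBA+TAM was the highest group, and the log2 fold change against control was 1.36 (SE 0.28, adjusted p = 0.00199). Exons of *Spry1* overlap those of *Gm42922* on the opposite strand. *Spry2* (ENSMUSG00000022114, chromosome 14, 105891949 to 105896819, minus strand) was at 12.7 and 11.9 CPM in control, 8.25 and 10.1 in TAM short, 17.5 and 19.2 in DMBA, 19.2 and 19.95 in TAM long, and 15.8 and 14.1 in DMBA+TAM. *Spry2* was highest in the L libraries, and DMBA+TAM lay between these and control. Its log2 fold change in DMBA+TAM against control was 0.28 (SE 0.19, adjusted p = 0.248), and 0.77 (adjusted p = 0.00617) when libraries were scaled by size alone.

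*Phlda1* (ENSMUSG00000020205, chromosome 10, 111506286 to 111508645, plus strand) encodes a pleckstrin homology-like domain protein that is also expressed in intestinal stem cells. It was at 8.59 and 13 CPM in control, 7.91 and 7.82 in TAM short, 17.0 and 17.5 in DMBA, 15.0 and 12.2 in TAM long, and 8.97 and 4.85 in DMBA+TAM. *Phlda1* was highest in DMBA and, unlike *Etv4*, *Spry4* and *Spred1*, had its lowest mean CPM in DMBA+TAM, where it rests on 17 and 11 reads. On the log2 scale, DMBA+TAM against TAM short was -0.21 (SE 0.34, adjusted p = 0.604). With library size alone that value was 0.19, so the lowest place depends on scaling. The log2 fold change in DMBA+TAM was -1.34 against DMBA (SE 0.32, adjusted p = 0.00514), -1.003 against TAM long (SE 0.32, adjusted p = 0.023) and -0.67 against control (SE 0.33, adjusted p = 0.1). The last of these was -0.97 without control replicate 1 and -1.18 without DMBA+TAM replicate 1. With each library left out in turn, it ranged from -1.18 to -0.29. Exons of *Phlda1* overlap those of *Gm28592* on the opposite strand.

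Promoter windows of 250 bases before to 50 bases after the annotated start, taken from RefSeq on GRCm38.p6, were matched for 6 of the 10 genes by symbol, *Dusp5*, *Dusp6*, *Spry1*, *Spry2*, *Spred1* and *Etv5*, with 2 starts for *Etv5*. The 4 of these with the largest fold change between any pair of groups are printed below, so that the sequences next to genes that rose (*Etv5* and *Spred1*) and genes that fell (*Dusp5* and *Dusp6*) in DMBA+TAM against control can be compared. Motifs of factors that ERK signalling is known to act on were searched on both strands: the cyclic AMP response element TGACGTCA, the AP-1 site TGANTCA and the ETS site CCGGAAGT. The other 2 motifs were searched after the sequences had been looked at: the PEA3 core AGGAAG and the CArG box bound by serum response factor. Capitals mark matches of these last 2 motifs, on either strand.
Dusp5, chr19:53528895-53529194, plus strand: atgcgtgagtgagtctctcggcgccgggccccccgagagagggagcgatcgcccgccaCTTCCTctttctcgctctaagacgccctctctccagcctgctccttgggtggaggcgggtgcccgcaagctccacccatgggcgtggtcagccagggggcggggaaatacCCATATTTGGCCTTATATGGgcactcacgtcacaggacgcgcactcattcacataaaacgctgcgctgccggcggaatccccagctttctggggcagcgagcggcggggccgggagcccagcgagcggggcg
Dusp6, chr10:99262981-99263280, plus strand: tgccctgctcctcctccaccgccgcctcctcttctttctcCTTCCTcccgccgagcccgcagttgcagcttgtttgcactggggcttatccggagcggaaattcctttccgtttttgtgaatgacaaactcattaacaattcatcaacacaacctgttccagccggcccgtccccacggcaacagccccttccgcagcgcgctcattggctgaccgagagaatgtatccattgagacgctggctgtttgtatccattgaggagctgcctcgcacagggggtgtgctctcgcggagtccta
Spred1, chr2:117120821-117121120, plus strand: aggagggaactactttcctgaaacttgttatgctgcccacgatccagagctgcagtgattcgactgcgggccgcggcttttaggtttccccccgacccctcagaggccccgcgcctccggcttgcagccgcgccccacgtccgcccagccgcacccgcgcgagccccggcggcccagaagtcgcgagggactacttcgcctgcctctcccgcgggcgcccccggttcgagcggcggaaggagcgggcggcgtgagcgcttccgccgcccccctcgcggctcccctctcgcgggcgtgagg
Etv5 first start, chr16:22439521-22439820, minus strand: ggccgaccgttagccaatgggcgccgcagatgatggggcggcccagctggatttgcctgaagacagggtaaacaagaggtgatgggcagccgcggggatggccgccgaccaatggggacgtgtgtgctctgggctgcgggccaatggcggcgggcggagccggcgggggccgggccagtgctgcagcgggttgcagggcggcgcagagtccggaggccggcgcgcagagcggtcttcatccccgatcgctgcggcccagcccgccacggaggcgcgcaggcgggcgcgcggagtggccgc
Etv5 second start, chr16:22438319-22438618, minus strand: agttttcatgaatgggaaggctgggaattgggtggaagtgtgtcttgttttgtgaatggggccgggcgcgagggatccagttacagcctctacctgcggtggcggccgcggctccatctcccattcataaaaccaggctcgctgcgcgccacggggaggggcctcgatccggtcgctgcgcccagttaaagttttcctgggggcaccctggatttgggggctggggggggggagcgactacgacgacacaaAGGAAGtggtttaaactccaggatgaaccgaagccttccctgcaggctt
None of the 7 windows held TGACGTCA, TGANTCA or CCGGAAGT, which were found in 1.79%, 7.81% and 3.89% of all 32851 promoters of that length. The PEA3 core, present in 35.4% of all promoters, was found once each in *Dusp5* (base -192 from the start), *Dusp6* (base -210) and the second *Etv5* start (base 2). *Dusp5* also held 2 adjacent CArG matches, at bases -82 and -72, and a CArG match was present in 1.63% of all promoters. A match is a description of letters in the window.

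DMBA+TAM was also compared with the 3 other groups, whose labels name 1 agent each. All 10 epithelium markers fell in each of these comparisons. Against DMBA and TAM long, all 8 smooth muscle markers fell, as did 5 and 4 of the 5 colon markers tested. These comparisons therefore do not separate the agents from the marker differences, and the part of those was not tested. Against DMBA, 5 of the 10 genes rose (*Dusp4*, *Dusp6*, *Spry4*, *Spred1* and *Etv4*), 1 fell (*Phlda1*) and 4 did not pass the test. The background over all genes was 25.2% higher and 29.9% lower. Against TAM long, 5 rose (*Dusp4*, *Spry1*, *Spry4*, *Spred1* and *Etv4*), 1 fell (*Phlda1*) and 4 did not pass, with 25.3% of all genes called higher and 29.9% lower. Against TAM short, 7 rose (*Dusp4*, *Spry1*, *Spry2*, *Spry4*, *Spred1*, *Etv4* and *Etv5*), 2 fell (*Dusp5* and *Dusp6*) and 1 did not pass, with 29.3% of all genes called higher and 33.8% lower. These comparisons share the DMBA+TAM libraries and are not independent. The medians over the 10 genes were 0.40, 0.52 and 1.199 on the log2 scale against DMBA, TAM long and TAM short, beside -0.14 over all genes in each.

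**Figure D3:**
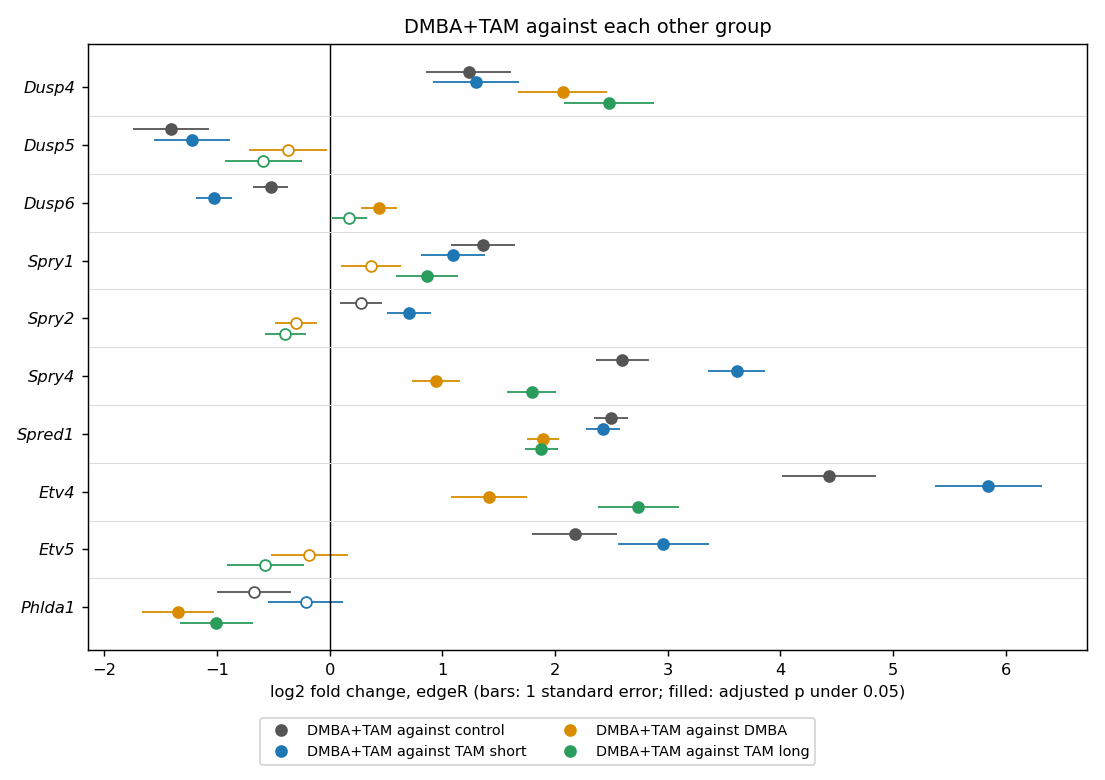
Log2 fold change (edgeR, x axis) of each gene in DMBA+TAM against the 4 other groups, with bars of 1 standard error and filled points for an adjusted p below 0.05. Spred1, Spry4, Etv4 and Dusp4 lie to the right of 0 in all 4 comparisons, whereas Etv5 is at -0.18 and -0.57 against DMBA and TAM long.

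Among these values, the largest was that of *Etv4* against TAM short, 5.84 (SE 0.48, adjusted p = 3.23e-06), where TAM short had 3 and 6 reads. *Dusp4* reached 2.07 against DMBA (SE 0.39, adjusted p = 0.00149) and 2.48 against TAM long (SE 0.40, adjusted p = 0.000511). With each library left out in turn, the value of *Dusp4* against DMBA ranged from 1.54 to 2.80. Against TAM long, *Spry4* reached 1.79 (SE 0.22, adjusted p = 7.05e-05), and *Etv5* was at -0.57 (SE 0.34, adjusted p = 0.182), which passed with no filter (-0.62, adjusted p = 0.00981) and with only the groups compared (-0.55, adjusted p = 0.014). Several smaller values depended on 1 library. *Dusp6* against DMBA did not pass without either DMBA replicate or either DMBA+TAM replicate (0.37 to 0.48, adjusted p from 0.067 to 0.143), nor with no filter on low counts (0.38, adjusted p = 0.0644). Without DMBA+TAM replicate 2, the values of *Phlda1* were -0.95 against DMBA (adjusted p = 0.0588) and -0.60 against TAM long (adjusted p = 0.206), and those of *Spry1* were 0.67 against TAM long (adjusted p = 0.16) and 0.88 against TAM short (adjusted p = 0.0701). *Phlda1* against TAM long was also lost with library size alone (-0.83, adjusted p = 0.0539), with thinned counts (-0.53, adjusted p = 0.328) and without TAM long replicate 1 (-0.86, adjusted p = 0.0947), and *Spry1* without TAM long replicate 2 (0.69, adjusted p = 0.117). Against TAM short, *Dusp5* was lost without DMBA+TAM replicate 2 (-1.001, adjusted p = 0.0822). *Dusp4* against TAM short was lost without TAM short replicate 1, TAM short replicate 2 or DMBA+TAM replicate 1 (1.35, 1.21 and 1.11, adjusted p of 0.055, 0.0749 and 0.0853). *Spry2* against TAM short was lost without TAM short replicate 1 (0.53, adjusted p = 0.0696) or DMBA+TAM replicate 1 (0.60, adjusted p = 0.07).

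DMBA alone went with higher levels of most of these genes than control. In DMBA against control 7 of the 10 genes rose (*Etv4*, *Etv5*, *Spry4*, *Spry1*, *Phlda1*, *Spred1* and *Spry2*), 2 fell (*Dusp5* and *Dusp6*) and 1 did not pass (*Dusp4*), against a background of 24.5% higher and 23.3% lower. The log2 fold change was 3.01 for *Etv4* (SE 0.40, adjusted p = 0.000249), 2.36 for *Etv5* (SE 0.35, adjusted p = 0.000464) and 1.66 for *Spry4* (SE 0.22, adjusted p = 0.000225). *Spry1*, *Phlda1*, *Spred1* and *Spry2* rose by smaller values, from 0.58 to 0.995. *Dusp6* fell by 0.96 (SE 0.15, adjusted p = 0.000668) and *Dusp5* by 1.04 (SE 0.27, adjusted p = 0.0105), and *Dusp4* was at -0.84 (SE 0.37, adjusted p = 0.0907). In these groups summed small intestine markers went from 42591 and 47492 CPM to 643 and 308, and summed colon markers from 17.0 and 11.6 to 6534 and 2030. All 8 smooth muscle markers rose as well, from a sum of 2227 and 1889 CPM to 12759 and 7531. Of 12 fibroblast markers 10 rose and 1 fell, from a sum of 1510 to 1663 CPM to one of 2332 to 2638, and of 10 epithelium markers 3 rose and 6 fell, from 21050 to 21894 CPM to 13278 to 14259. The part of these marker differences was not tested. *Dusp4* was at -1.60 without DMBA replicate 2, and with each library left out in turn it ranged from -1.60 to -0.34. Without control replicate 1, *Spry1* (0.75, adjusted p = 0.0891), *Phlda1* (0.40, adjusted p = 0.316) and *Spry2* (0.61, adjusted p = 0.058) were lost, and without control replicate 2, *Dusp5* (-0.97, adjusted p = 0.066), *Spred1* (0.40, adjusted p = 0.0709) and *Spry2* (0.52, adjusted p = 0.094) were lost. *Phlda1* was further lost without DMBA replicate 1 (0.67, adjusted p = 0.0999) and DMBA replicate 2 (0.65, adjusted p = 0.101), and *Spry2* without DMBA replicate 2 (0.50, adjusted p = 0.059). With thinned counts the calls of *Dusp5* (-0.55, adjusted p = 0.169), *Phlda1* (0.50, adjusted p = 0.343), *Spry1* (1.29, adjusted p = 0.0756) and *Spry4* (1.35, adjusted p = 0.0619) were lost, and DESeq2 did not call *Phlda1* (0.67, adjusted p = 0.0736). Limma did not call *Dusp5* on log2(FPKM + 1) (-0.66, adjusted p = 0.0559) or log2(FPKM + 0.1) (-0.76, adjusted p = 0.0617). The value of *Etv5* was 1.59 without DMBA replicate 1 and 2.83 without DMBA replicate 2.

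TAM long was the other group with an L in its library names. In TAM long against control 5 of the 10 genes rose (*Etv5*, *Etv4*, *Spry4*, *Spry2* and *Spred1*), 3 fell (*Dusp4*, *Dusp5* and *Dusp6*) and 2 did not pass (*Spry1* and *Phlda1*), against a background of 23.2% higher and 22.8% lower. This comparison uses the same control libraries as the last one. Here too all 8 smooth muscle markers rose, to a sum of 8824 and 13532 CPM, while 5 of 12 fibroblast markers rose and 2 fell, and 2 of 10 epithelium markers rose and 6 fell, to a sum of 13743 to 15273. The part of these was not tested. *Etv5* rose by 2.75 (SE 0.35, adjusted p = 0.000197), which is 0.39 above its value in DMBA. That difference was 1.14 without DMBA replicate 1 and -0.090 without DMBA replicate 2. *Etv4* rose by 1.69 (SE 0.42, adjusted p = 0.00886), and *Spry4* by 0.80 (SE 0.22, adjusted p = 0.0145). All 3 phosphatase genes fell, *Dusp4* by 1.24 (SE 0.38, adjusted p = 0.0226), *Dusp5* by 0.82 (SE 0.27, adjusted p = 0.0296) and *Dusp6* by 0.70 (SE 0.15, adjusted p = 0.00412). With library size alone none of the 3 passed (-0.93, -0.50 and -0.38, adjusted p of 0.0524, 0.123 and 0.0742), and *Spry1* did (0.82, adjusted p = 0.03). Limma on log2(FPKM + 1) called none of the 3 either (-0.60, -0.46 and -0.37, adjusted p of 0.0799, 0.163 and 0.0901). With thinned counts *Dusp4* (-1.23, adjusted p = 0.113), *Dusp5* (-0.43, adjusted p = 0.285), *Etv4* (1.56, adjusted p = 0.101), *Spry2* (0.91, adjusted p = 0.0604) and *Spry4* (0.071, adjusted p = 0.948) were lost. Without control replicate 1, *Dusp4* (-1.21, adjusted p = 0.0958), *Dusp5* (-0.90, adjusted p = 0.0806), *Etv4* (1.48, adjusted p = 0.0744) and *Spry4* (0.67, adjusted p = 0.101) were lost. Without control replicate 2, *Dusp4* (-1.29, adjusted p = 0.0788), *Dusp5* (-0.75, adjusted p = 0.138), *Spred1* (0.41, adjusted p = 0.0651) and *Spry2* (0.62, adjusted p = 0.0578) were lost. With either control library left out, 4 of the 10 genes passed the test. *Dusp4* and *Spry4* were also lost without TAM long replicate 1 (-0.99 and 0.67, adjusted p of 0.144 and 0.0952), and *Dusp5* without TAM long replicate 2 (-0.59, adjusted p = 0.188).

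**Figure D4:**
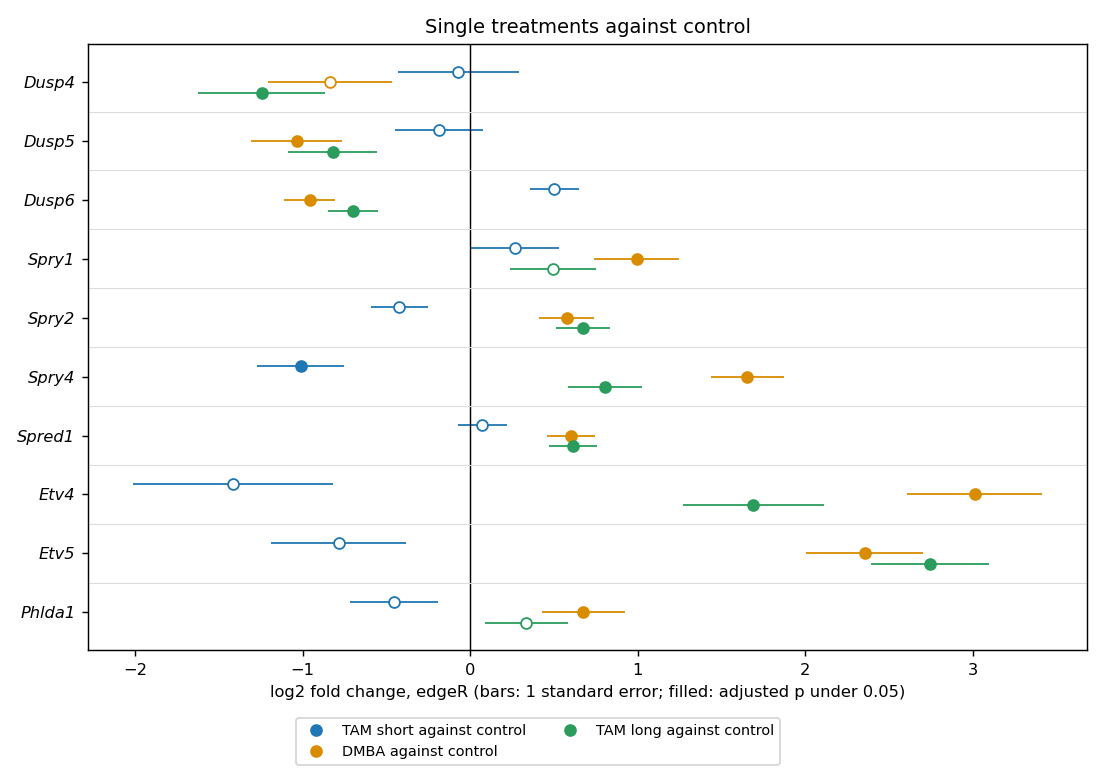
Log2 fold change (edgeR, x axis) of each gene in TAM short, DMBA and TAM long against control, with bars of 1 standard error and filled points for an adjusted p below 0.05. In TAM short only Spry4 is filled, at -1.01, whereas Etv4 and Etv5 lie at 1.69 or above in DMBA and TAM long.

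TAM short differed from control in 1 of the 10 genes. *Spry4* fell by 1.01 (SE 0.26, adjusted p = 0.0298), no gene rose, and 9 did not pass, against a background of 6.52% higher and 7.8% lower. Without control replicate 1 or 2 or TAM short replicate 1 or 2 *Spry4* was lost as well (-0.87 to -1.14, adjusted p from 0.0672 to 0.168), and DESeq2 gave an adjusted p of 0.0698. With library size alone and with only the groups compared, *Spry4* was lost (adjusted p of 0.0543 and 0.0614) and *Dusp6* was called higher (0.59 and 0.56, adjusted p of 0.0352 and 0.00331), so that the 1 call changed gene and direction. By edgeR, 1 gene was higher and 3 were lower at an unadjusted p below 0.05. The shares over all genes above are for the adjusted p, and none is given here for the unadjusted cut. DESeq2 called 1 higher, *Dusp6*, and 0 lower, beside 1100 higher and 1318 lower among 15238 genes. *Dusp6* was at 0.50 (SE 0.15, adjusted p = 0.0508), *Etv4* at -1.41 (SE 0.60, adjusted p = 0.152) and *Etv5* at -0.79 (SE 0.40, adjusted p = 0.233). Between the same groups 8 of 12 fibroblast markers fell and 1 rose, from a sum of 1510 to 1663 CPM to one of 766 to 934, and of 10 small intestine markers 2 rose and 6 fell, and the part of these was not tested.

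TAM long and DMBA, the 2 groups whose library names hold an L, were compared directly. None of the 10 genes passed the test by edgeR, with 1.24% of all genes higher and 1.46% lower. At an unadjusted p below 0.05, 0 were higher and 2 were lower, a cut for which no share over all genes is given here. DESeq2 called 1, *Etv4*, as lower, beside 417 higher and 440 lower among 13983 genes. *Etv4* was at -1.32 (SE 0.34, adjusted p = 0.0724) and *Spry4* at -0.85 (SE 0.20, adjusted p = 0.0582). Of 12 fibroblast markers 5 fell and 0 rose between these groups, from a sum of 2332 to 2638 CPM in DMBA to one of 1479 to 1841 in TAM long, and the part of that difference was not tested. DMBA replicate 1 had over 2 times the *Etv5* level of replicate 2, and without it 2 genes passed, *Etv5* at 1.14 (adjusted p = 0.00705) and *Etv4* at -1.71 (adjusted p = 0.0111). The change from DMBA to TAM long was then set against that from control to TAM short in a single contrast. No member passed by edgeR, with 2.93% of all genes higher and 2.78% lower. At an unadjusted p below 0.05, 2 were higher and 0 lower, again with no share over all genes given for that cut. DESeq2 called 0 in either direction, beside 704 higher and 638 lower among 14297 genes. *Etv5* was at 1.17 (adjusted p = 0.21) in this contrast, and at 1.93 without DMBA replicate 1. With each library left out in turn, it ranged from 0.70 to 1.93.

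Scaling shifted these counts. When libraries were scaled by size alone, the median over all genes moved by 0.48 in DMBA+TAM against control, 0.39 against TAM short, 0.18 against DMBA and 0.17 against TAM long, and by 0.31 and 0.32 in DMBA and TAM long against control. The share of calls that were higher went from 45.1% to 62.5% in DMBA+TAM against control, from 46.4% to 61.5% against TAM short, from 51.2% to 71.2% in DMBA, from 50.5% to 72.1% in TAM long and from 45.5% to 58.6% in TAM short against control, and from 51.3% to 38.7% in the contrast of TAM-labelled changes. Of the 10 genes in DMBA+TAM against control, the call of *Dusp6* was lost and that of *Spry2* gained with this scaling, and the others kept theirs.

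The other genes of the pathway were taken from 3 lists. Of 25 genes of the cascade itself, 10 rose, 9 fell and 6 did not pass in DMBA+TAM against control, where 29% of all genes were higher and 35.3% lower. The 3 largest rises were *Rps6ka2*, a ribosomal S6 kinase downstream of ERK (2.41, from 3.38 to 18 CPM), *Rras*, a RAS-related GTPase (1.503, from 21.3 to 60.3) and *Gab2*, a docking protein (1.37, from 25.5 to 66.0). The 3 largest falls were *Rps6ka1* (-2.36, from 207 to 40.2), *Map2k2*, which encodes MEK2 (-1.92, from 261 to 68.9), and *Mapk3*, which encodes ERK1 (-1.80, from 316 to 90.9). The median over the 25 genes was -0.07 on the log2 scale, beside -0.17 over all genes. With library size alone 11 rose and 8 fell, where 6254 of all 16179 genes were higher and 3755 lower. In DMBA, TAM long and TAM short against control, 3, 4 and 1 of the 25 rose and 5, 5 and 1 fell, where 24.5%, 23.2% and 6.52% of all genes were higher and 23.3%, 22.8% and 7.8% lower.

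Of 30 other feedback and target genes, 16 rose, 8 fell and 6 did not pass in DMBA+TAM against control (all genes: 29% higher, 35.3% lower), with a median of 1.28 beside -0.17 over all genes. The largest rises were *Phlda3*, a pleckstrin homology-like relative of *Phlda1* (4.13, from 3.83 to 67.7 CPM), *Elk3*, an ETS factor (4.01, from 7.04 to 114), and *Plaur*, the urokinase receptor (3.67, from 3.94 to 50.3). The falls included *Epha2*, an ephrin receptor (-3.85, from 72.8 to 4.98 CPM), and *Dusp8*, a phosphatase of stress kinases (-2.05, from 18.9 to 4.53). *Spry3* also fell, with 161 and 118 reads in control and 1 read in each DMBA+TAM library, which is below the limit of 3 reads. It had 3 and 3 reads in DMBA, 2 and 5 in TAM long, and 68 and 38 in TAM short, so this Sprouty gene went opposite to *Spry1*, *Spry2* and *Spry4* in DMBA against control. With library size alone 16 rose and 7 fell, beside 6254 higher and 3755 lower among all 16179 genes. In DMBA, TAM long and TAM short against control, 12, 12 and 5 of the 30 rose and 6, 5 and 5 fell, beside 24.5%, 23.2% and 6.52% higher and 23.3%, 22.8% and 7.8% lower over all genes.

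Of 12 receptor tyrosine kinase genes upstream, 5 rose, 6 fell and 1 did not pass in DMBA+TAM against control, a comparison that called 29% of all genes higher and 35.3% lower. The median of the 12 was -1.13. *Fgfr1* (4.19, from 11.3 to 206 CPM), *Pdgfrb* (3.72, from 14.7 to 195) and *Pdgfra* (2.18, from 47.7 to 217), receptors for fibroblast and platelet-derived growth factors, had the largest rises. *Erbb3* (-5.36, from 319 to 7.97), *Met* (-2.93, from 91.8 to 12.1) and *Fgfr2* (-2.62, from 26.8 to 4.49) had the largest falls. *Egfr*, the receptor of the EGF in the medium, rose (1.74, from 42.8 to 143 CPM), and was named after its value was seen. *Pdgfra* is also in the fibroblast list and *Kdr*, another of the 5 that rose, in the endothelium list. With library size alone 5 rose and 5 fell, and of all 16179 genes 6254 were then higher and 3755 lower. In DMBA, TAM long and TAM short against control, 6, 6 and 0 of the 12 rose and 1, 1 and 2 fell (over all genes, 24.5%, 23.2% and 6.52% higher and 23.3%, 22.8% and 7.8% lower).

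Immediate early genes were measured beside the 10. Fos was at 173 and 247 CPM in control and at 55.4 and 35.7 in DMBA+TAM, where it fell by 2.22 on the log2 scale (SE 0.24, adjusted p = 2.1e-05). Egr1 was at 12.3 and 10.8 in control and 50.1 and 41.9 in DMBA+TAM, a rise of 1.98 (SE 0.20, adjusted p = 1.45e-05), and Myc was at 17.5 and 12 and at 7.92 and 12.8 (-0.50, SE 0.28, adjusted p = 0.148). Fos and Egr1 moved in opposite directions in this comparison, whereas against TAM long, where Egr1 was highest (83.3 and 60.05 CPM), both were lower in DMBA+TAM (Fos -1.98, adjusted p = 6.26e-05, and Egr1 -0.64, adjusted p = 0.0142).

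Levels were compared between genes per length, as the deposited FPKM, which divides a count by gene length and library total. In control the order was *Dusp6* (35.2 ± 3.64 FPKM, mean ± SD, n = 2), *Dusp5* (8.10 ± 0.39), *Phlda1* (7.87 ± 2.09), *Spred1* (6.41 ± 1.48), *Spry2* (4.99 ± 0.33), *Etv5* (3.45 ± 0.16), *Dusp4* (2.41 ± 0.15), *Spry1* (1.62 ± 0.36), *Etv4* (1.13 ± 0.22) and *Spry4* (0.69 ± 0.075). The libraries of *Dusp5* and *Phlda1*, and of *Phlda1* and *Spred1*, overlapped, and no other neighbours did. In DMBA+TAM the order opened with *Spred1* (50.7 ± 2.82 FPKM), *Etv4* (34.8 ± 7.87) and *Dusp6* (34.4 ± 1.17), followed by *Etv5* (21.9 ± 1.51) and 5 genes between 5.82 and 8.52 FPKM whose neighbours overlapped (*Spry2*, *Dusp4*, *Phlda1*, *Spry4* and *Spry1*), and closed with *Dusp5* (4.33 ± 1.05). The libraries of *Etv4* and *Dusp6* overlapped. *Etv4* went from the ninth place to the second and *Spred1* from the fourth to the first. The deposited FPKM rests on a shorter length than the listed one for *Etv5*, *Etv4*, *Phlda1*, *Spred1* and *Spry1* (ratios of 2.21, 2.20, 1.69, 1.61 and 1.08), and with listed lengths *Dusp6* stood first in DMBA+TAM at 34.4 and *Spred1* second at 31.4 CPM per kilobase. At the other end of that order, *Phlda1* was last at 4.21, after *Dusp5* at 4.33.

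In DMBA the deposited FPKM placed *Dusp6* (22.4 ± 3.30 FPKM) and *Etv5* (22.4 ± 14.5) first, with libraries that overlapped, and *Dusp4* last (1.64 ± 0.83), and with listed lengths *Etv5* was at 10.1 and *Dusp6* at 22.4 CPM per kilobase. In TAM long *Etv5* (28.8 ± 1.38) and *Dusp6* (27.0 ± 3.79) led and overlapped, and *Dusp4* was again last (1.27 ± 0.33). With listed lengths their order turned, *Dusp6* at 27.0 and *Etv5* at 13.1 CPM per kilobase. In TAM short *Dusp6* (53.1 ± 7.54) stood far above the next gene, *Dusp5* (7.57 ± 1.28), and *Etv4* (0.45 ± 0.24) and *Spry4* (0.36 ± 0.022) were last and overlapped. With listed lengths *Etv4* was last at 0.21, after *Spry4* at 0.36 CPM per kilobase.

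The 10 genes fell into patterns over the 10 libraries, given here as Pearson correlations of log2 CPM, a description over libraries that share groups. *Etv4* and *Spry4* were the closest pair (0.978), and *Etv5* went with *Spry2* (0.915). *Dusp6* ran against *Spry2* (-0.947) and *Etv5* (-0.905), and *Dusp5* against *Spry4* (-0.84). *Phlda1* was near 0 with *Spry4* (0.041) and *Etv4* (0.065). Among all tested genes, the 2 with a pattern most like each of 9 members were *Csgalnact1* and *Cyth3* for *Spred1* (0.997 and 0.996), *Srgap3* and *Hoxa2* for *Etv5* (0.995 and 0.982), *Cbx6* and *Map1b* for *Spry4* (0.987 and 0.984) and *Wdr6* and *Adarb1* for *Etv4* (0.983 and 0.982). For *Spry2* they were *Isg20* and *Pdgfa* (0.979 and 0.972), for *Dusp5* *Pigp* and *Rpe* (0.974 and 0.963), for *Dusp6* *Med13* and *4932438A13Rik* (both 0.962), for *Spry1* *Acd* and *Wiz* (0.961 and 0.959) and for *Phlda1* *Cfap20* and *Fn3krp* (0.958 and 0.954). The number of genes above 0.95 was 855 for *Spred1*, 170 for *Spry4*, 114 for *Etv4* and 48 for *Etv5*, and from 4 to 13 for the other 6 genes.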

How the data were processed

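RNA-seq libraries of poly(A) RNA were mapped with TopHat to GRCm38, and the authors counted reads per gene with HTSeq and computed FPKM from gene length. The deposited table has a count and an FPKM column for each of 10 libraries, and adjusted p-values and fold changes of the authors' own comparisons, which were not used. Of 47074 lines, 5 had no counts. Whether counting used strand is not given in the sources used here. edgeR 4.0.16 (R 4.3.3) was run on the deposited counts (filterByExpr, TMM scaling, a quasi-likelihood fit of a mean for each of 5 groups over all 10 libraries, and Benjamini-Hochberg adjustment over 16179 genes, threshold 0.05). Normalised CPM uses TMM library totals. The standard error (SE) of edgeR values was derived from the test: the absolute log2 fold change divided by the square root of F. With 2 libraries a group no permutation test can pass the threshold. The members and gene lists were chosen with earlier results of these data known. From the 3 lists, the 3 largest rises and 3 largest falls past the threshold with a mean count of 20 or more are named. Treatments were taken from the description in each library's label, since the titles do not spell out saline, DMBA or tamoxifen. As alternatives, DESeq2 1.42.0, library size as the only scaling, no filter, a fit of the compared groups alone, a replicate block, limma 3.58.1 on log2(FPKM + 1) or log2(FPKM + 0.1), counts thinned to 1592366 per library, and each library left out in turn were run, the last with the lone library of a group assumed to vary like the other groups. Figures were made with Python 3.11.15 and matplotlib 3.10.9. The genes most like *Dusp4* in pattern are not reported here.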

Additional observations from a re-analysis of the deposited data

How the results depend on the processing

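Of 90 values (10 genes in 9 contrasts), 47 passed the threshold, and none of these 47 changed sign under any alternative or left-out library. However, 14 of the 47 lost the call under at least 1 alternative other than a left-out library. Only these 47 could lose a call in the numbers that follow. Over 720 alternative values 647 kept direction and side of the threshold, 37 lost the call, 17 gained one and 19 changed sign, and over 400 values with a library left out these numbers were 331, 45, 7 and 17. Values that did not pass and changed sign were as follows, and the cause was not tested. With limma on log2(FPKM + 1) and log2(FPKM + 0.1), *Etv5* in DMBA+TAM against DMBA was 0.13 and 0.14, *Phlda1* against TAM short 0.14 and 0.15, *Dusp4* in TAM short against control 0.012 and 0.016, and in the contrast of TAM-labelled changes *Spry4* was -0.25 and -0.030, *Etv4* -0.53 and -0.0088, and *Phlda1* -0.015 with the first. With library size alone, *Phlda1* against TAM short was 0.19 and *Dusp4* in TAM short 0.017. With thinned counts, *Phlda1* in TAM long against control was -0.25, *Dusp5* in TAM short 0.012, *Spry2* in TAM long against DMBA -0.39, and *Dusp4*, *Dusp6* and *Phlda1* in the contrast 0.092, 0.085 and -0.24. The number of genes past the threshold was 5 with thinned counts in DMBA against control, 5 with either limma fit and 3 with thinned counts in TAM long against control, 3 with no filter and 0 with limma or thinned counts in TAM short against control, 1 with DESeq2 and 2 with no filter in TAM long against DMBA, and 1 with no filter in the contrast. With no filter, calls were gained for *Dusp4* in DMBA against control (-0.85, adjusted p = 0.0194), *Phlda1* in DMBA+TAM against control (-0.74, adjusted p = 0.0457), *Dusp6* and *Etv5* in TAM short against control (0.51 and -0.78, adjusted p of 0.0155 and 0.0132), *Etv4* and *Spry4* in TAM long against DMBA (-1.32 and -0.85, adjusted p of 0.000178 and 0.0365) and *Etv5* in the contrast (1.17, adjusted p = 0.00348), and that of *Dusp6* in DMBA+TAM against DMBA was lost (0.38, adjusted p = 0.0644). With each library left out in turn, the values that changed sign ranged as follows: in DMBA+TAM against DMBA *Dusp5* -0.70 to 0.0079, *Etv5* -0.68 to 0.56, and in DMBA+TAM against TAM short *Phlda1* -0.72 to 0.17, and in TAM short against control *Spred1* -0.13 to 0.30, and in TAM long against DMBA *Dusp4* -0.93 to 0.34, *Dusp5* -0.11 to 0.62, *Spred1* -0.032 to 0.063, *Etv5* -0.090 to 1.14, and in the contrast *Dusp4* -0.86 to 0.41, *Spred1* -0.29 to 0.14, *Etv4* -0.38 to 0.74, *Phlda1* -0.21 to 0.39. The number of genes past the threshold then ranged from 4 to 7 in TAM long against control, at 0 throughout in TAM short against control, from 0 to 2 in TAM long against DMBA, from 0 to 1 in the contrast. In control, levels with listed lengths put *Spry2*, *Phlda1*, *Spred1*, *Dusp4*, *Etv5*, *Spry4* and *Etv4* at places 3, 4, 5, 6, 7, 9 and 10. Replicate deviations of the groups correlated at -0.04 to 0.26, with the highest value between DMBA and TAM long. With 1 deviation per group these values cannot decide whether the replicate numbers pair the libraries. The replicate block changed 2 calls, *Dusp6* in DMBA+TAM against DMBA (0.44, adjusted p = 0.052) and *Phlda1* in DMBA against control (0.68, adjusted p = 0.0561). *Phlda1* and *Dusp5* rest on 11 to 20 reads in the DMBA+TAM libraries.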
